A study of Homo sapiens with 8 samples.

Results

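The immediate early response genes FOS, FOSB, JUN, JUNB, EGR1, EGR2, EGR3, IER2, ATF3 and DUSP1 were followed in RNA-seq of the H9 line of human embryonic stem cells (hESCs), a long established line. They are 10 of the 57773 genes counted, and all 10 were among the 23474 genes that passed the expression filter and were tested. The list was selected on levels measured in these same 8 libraries, including the low FOSB counts after HERVH knockdown and the spread between replicates. The values of its members are therefore a description, and the list as a whole was not tested. Calls and p-value counts of members given below come from the tests of all genes and are no independent evidence about the list. There were 4 groups of 2 libraries each. WT cells were untreated and carried an HA tag on the endogenous CHD7 protein. CHD7 knockout cells (CHD7 -/-) were untreated and carried knockout mutations of this chromatin remodeler. HERVH knockdown cells were the HA-tagged WT cells 24 h after LNA-GapmeRs, antisense oligonucleotides that direct the cleavage of HERVH transcripts, the RNA of an endogenous retrovirus family expressed in hESCs. HERVH element deleted cells were untreated and lacked 1 HERVH copy on chr2. For the knockdown, the methods describe dissociation to single cells, a ROCK inhibitor and lipofection, whereas WT cells were untreated, so the loss of HERVH RNA and the treatment itself cannot be told apart in these libraries. The CHD7 knockout and HERVH element deleted cells were clones, and the labels do not name the clone behind each library. Nor is it stated whether replicates were separate cultures, so the tests below measure only the spread between these samples.

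Immediate early genes are transcribed within minutes of a growth factor, serum or stress signal, from factors already present in the cell and without new protein synthesis. The MAP kinase ERK acts through ELK1 and serum response factor bound at CArG boxes, and cAMP and calcium signals act through CREB bound at cAMP response elements (CREs). Their mRNAs are short-lived, so their levels follow the recent past of a culture, including a change of medium or a passage. FOS and FOSB pair with JUN and JUNB to form the AP-1 transcription factor, ATF3 is a related stress-induced factor, EGR1, EGR2 and EGR3 are zinc finger factors, IER2 is a nuclear protein, and DUSP1 is a phosphatase that switches MAP kinases off.

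The sequence just upstream of 4 of these genes is shown. FOS, FOSB and EGR1 differed widely between the HERVH element deleted replicates, and JUN turned in opposite directions between conditions. EGR3 and JUNB also differed widely between the replicates of some condition and are not shown. The sequences are the 250 bases before the RefSeq start in a table on GRCh38.p14, and each was matched letter for letter to GRCh37, the build of the counts. They are written 5' to 3' on the strand of the gene, with matches to the motifs searched in capitals. The FOS window is chr14:75745281-75745530 (plus strand), the FOSB window is chr19:45971004-45971253 (plus strand), the EGR1 window is chr5:137800918-137801167 (plus strand) and the JUN window is chr1:59249720-59249969 (minus strand).
FOS: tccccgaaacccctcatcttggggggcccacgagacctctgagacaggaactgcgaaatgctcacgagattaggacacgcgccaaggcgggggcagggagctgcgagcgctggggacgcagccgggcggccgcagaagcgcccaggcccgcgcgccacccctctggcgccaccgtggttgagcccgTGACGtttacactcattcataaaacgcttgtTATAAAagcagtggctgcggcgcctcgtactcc
FOSB: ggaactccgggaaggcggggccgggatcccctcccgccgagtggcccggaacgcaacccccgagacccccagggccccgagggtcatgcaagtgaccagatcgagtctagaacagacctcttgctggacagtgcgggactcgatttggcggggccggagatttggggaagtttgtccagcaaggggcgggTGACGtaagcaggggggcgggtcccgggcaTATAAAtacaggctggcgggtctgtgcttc
EGR1: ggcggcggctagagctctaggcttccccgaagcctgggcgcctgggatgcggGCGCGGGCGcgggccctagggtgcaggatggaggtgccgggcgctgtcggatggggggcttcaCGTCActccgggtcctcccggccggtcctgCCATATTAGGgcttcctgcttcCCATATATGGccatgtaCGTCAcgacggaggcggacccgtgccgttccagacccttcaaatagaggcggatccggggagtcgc
JUN: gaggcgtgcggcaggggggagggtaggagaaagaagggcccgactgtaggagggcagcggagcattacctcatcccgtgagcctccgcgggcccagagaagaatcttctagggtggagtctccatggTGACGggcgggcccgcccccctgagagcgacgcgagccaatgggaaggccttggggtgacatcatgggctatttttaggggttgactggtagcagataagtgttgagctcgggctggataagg

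In FOS and FOSB the site TGACG, the core of a CRE, lay 64 and 60 bases before the start and the TATA box TATAAA lay 33 and 30 bases before it, so that the windows of these relatives had both motifs in nearly the same place. The EGR1 window held 2 CArG boxes, which began 105 and 83 bases before the start, 2 TGACG sites on the other strand and a site GCGNGGGCG of the kind that EGR proteins bind. The JUN window held 1 TGACG, 123 bases before its start. The table matched 9 of the 10 genes with 12 start sites, and not EGR3. Of the 12 windows, 8 had TGACG, each in a different gene (DUSP1, EGR1, EGR2, FOS, FOSB, IER2, JUN and JUNB), against 21.2% of the 35116 promoters of this length. TATAAA was in 5 of the 12 (ATF3, DUSP1, FOS, FOSB and JUNB), against 10.7%. A CArG box was found in 2 of the 12 windows, those of EGR1 and of 1 start of EGR2, against 1.16% of promoters. The full CRE TGACGTCA was in DUSP1 (1.65%), where it overlaps 2 of its TGACG sites, and the EGR site was in EGR1 (8.41%). The AP-1 site TGANTCA (6.57%) was in none of these windows. Both strands were searched, and a match describes the letters and not the binding of a factor. Sequence beyond the 250 bases was not searched, so a gene without a match here, such as FOS for the CArG box, may have one further upstream.

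The deposited values were read counts per gene. The libraries held 14802049 to 23156445 reads counted on genes, and levels are given as CPM, counts relative to library size after TMM scaling, in which 3 counts corresponded to 0.128 to 0.218 CPM. CHD7 had 651.0 and 649.5 CPM in WT cells and 197.3 and 197.2 CPM in CHD7 knockout cells. All 7 markers of pluripotent cells were above 60 CPM in every library, with sums of 5659 to 6902 CPM. Summed neural, mesoderm and endoderm markers were at most 12.1 CPM, and HAND1 was at 0 in the WT and HERVH knockdown libraries. Summed fibroblast markers (COL1A1, COL3A1, DCN, THY1 and POSTN) were higher, at 307 to 441 CPM in WT and 272 to 479 CPM over all libraries. A single one of them reached 356 CPM in WT. DCN was at 0 in the CHD7 knockout and HERVH knockdown libraries, and COL3A1 was at 0 in the HERVH knockdown libraries. Endoderm markers summed to 11.9 and 12.1 CPM in the knockdown against 1.99 to 5.66 CPM in WT. The knockdown sum was mostly FOXA2 (10.3 and 9.69 CPM), with AFP at 1.81 and 2.11 CPM. SOX17 was at 0 in both knockdown libraries and GATA6 at 0 and 0.0728 CPM. Any link between these markers and the values below was not tested. The 2 HERVH knockdown libraries stood apart from each other. Their median absolute difference over all genes tested was 0.453 on the log2 scale, against 0.194 to 0.259 in the other groups. This difference followed GC content, with a Spearman correlation across 10742 genes of 0.738, against 0.469 in WT, 0.388 in HERVH element deleted and -0.148 in CHD7 knockout cells. The genes described here had exons of 50.2% to 64.9% GC (median 55.1%), above the median of 47.6% for all genes tested.

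Levels of the 10 genes differed widely in untreated WT cells. To compare genes, CPM were divided by the length of their merged exons. On that scale, averaged over the 8 libraries, IER2 stood highest at 12.9 CPM per kb, followed by FOS at 11.7 and EGR1 at 10.7, and then by ATF3 at 7.57, JUN at 5.84, DUSP1 at 5.11, JUNB at 3.36 and FOSB at 2.48. EGR2 at 0.439 and EGR3 at 0.0828 CPM per kb were lowest. The order of the leading genes depended on the condition. In WT cells FOS led with 19.2 CPM per kb, ahead of EGR1 at 15.04 and IER2 at 14.0, whereas in HERVH knockdown cells IER2 led with 15.7 and FOS stood at 4.95. Several neighbours in this order were not separated by the spread between the WT libraries. FOS and EGR1 overlapped, EGR1 stood above IER2 in replicate 1 and below it in replicate 2, and ATF3 overlapped DUSP1, DUSP1 overlapped FOSB and FOSB overlapped JUN. IER2 was apart from ATF3, JUN from JUNB, JUNB from EGR2 and EGR2 from EGR3.

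**Figure D1:**
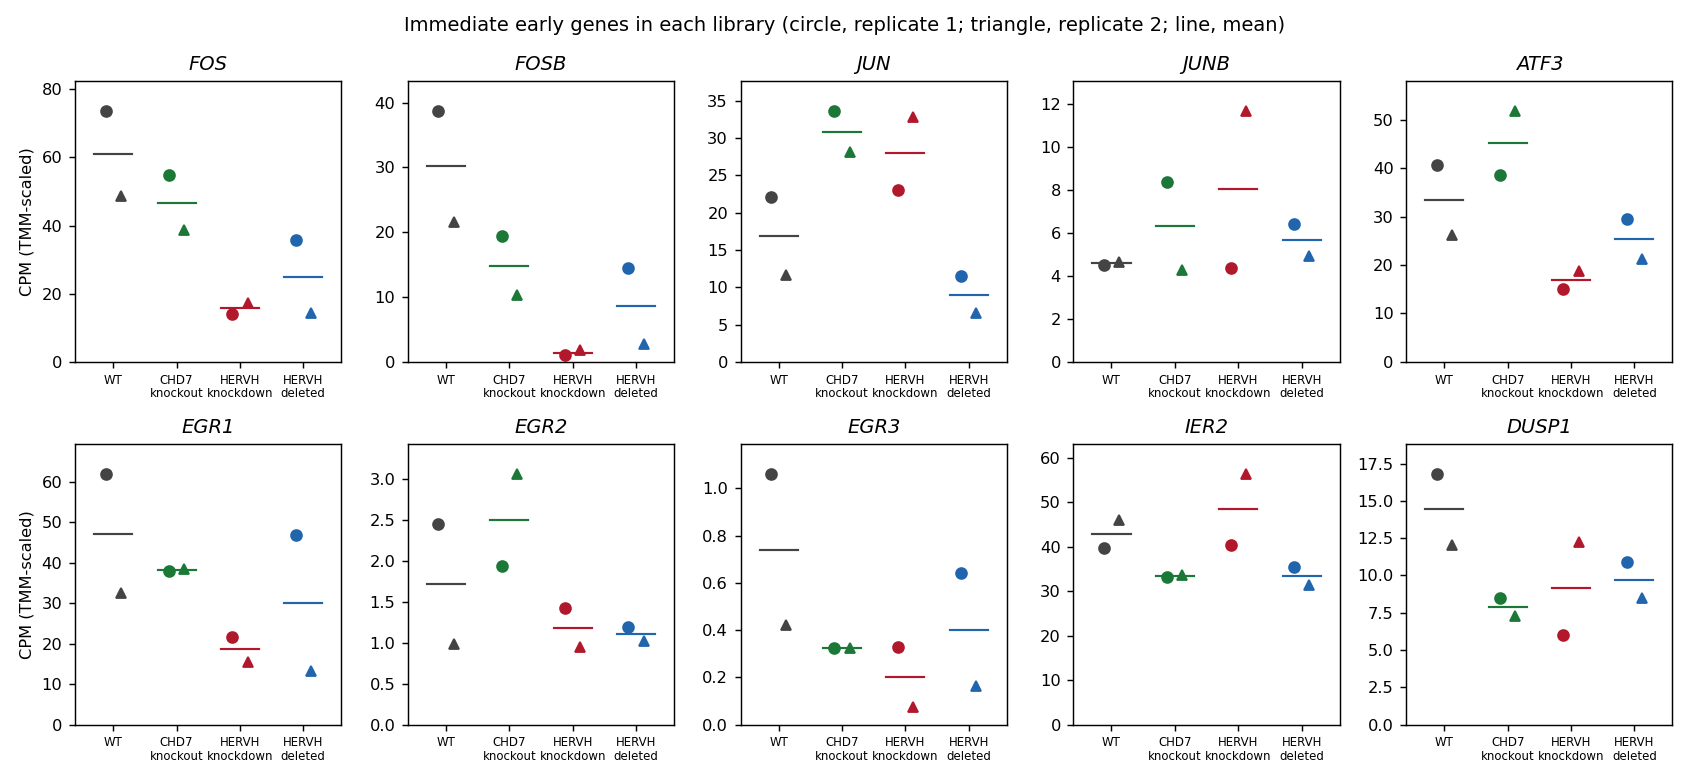
CPM after TMM scaling (vertical axis, from 0, a scale for each gene) of the 10 immediate early genes in the 8 libraries, by condition (horizontal axis). Circles are replicate 1, triangles replicate 2 and lines the mean of the 2 libraries. FOSB lies below 2 CPM in both HERVH knockdown libraries and above 20 CPM in both WT libraries, and FOS, FOSB and EGR1 differ widely between the HERVH element deleted replicates.

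FOSB (ENSG00000125740, chr19:45971253-45978437, plus strand) encodes an AP-1 subunit of the FOS family and was the most variable of the 10 genes, with 37.2-fold between its highest and lowest CPM. It was at 38.7 and 21.7 CPM in WT, 19.4 and 10.3 CPM in CHD7 knockout, 1.04 and 1.82 CPM in HERVH knockdown, and 14.5 and 2.81 CPM in HERVH element deleted cells. The knockdown values came from 19 and 25 reads, against 838 and 463 reads in WT. All 6 libraries outside WT lay below both WT libraries, and the knockdown libraries lay below all others. The fitted log2 fold change from WT was -4.43 (SE 0.65) in HERVH knockdown cells, -1.78 (SE 0.53) in HERVH element deleted cells and -1.02 (SE 0.52) in CHD7 knockout cells. The mean CPM in WT was 21.1-fold that in the knockdown. The size of the value in HERVH element deleted cells depended on the replicate. Without replicate 2 the log2 fold change was -1.05 and without replicate 1 it was -3.41. FOSB overlaps ERCC1 on the opposite strand, and it is not stated whether the counting kept the strands apart.

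FOS (ENSG00000170345, chr14:75745529-75748933, plus strand), the founding member of the family, was far more abundant and moved over a smaller range. It was at 73.6 and 48.6 CPM in WT, 54.8 and 38.6 CPM in CHD7 knockout, 14.2 and 17.3 CPM in HERVH knockdown, and 35.8 and 14.3 CPM in HERVH element deleted cells. Both HERVH conditions lay below both WT libraries, and the CHD7 knockout libraries overlapped them. The log2 fold change was -1.96 (SE 0.35) in the knockdown, -1.28 (SE 0.34) in the deletion and -0.39 (SE 0.33) in the knockout. Without replicate 1 or replicate 2 of the HERVH element deleted cells, the value for the deletion was -2.08 or -0.76.

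The ratio of FOSB to FOS, both per kb of exon, also varied between conditions. It was 0.302 and 0.256 in WT, 0.203 and 0.154 in CHD7 knockout, 0.0421 and 0.0603 in HERVH knockdown, and 0.232 and 0.113 in HERVH element deleted libraries. FOSB was thus lower relative to FOS in all 6 libraries outside WT, with the lowest ratios in the knockdown.

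JUN (ENSG00000177606, chr1:59242517-59249720, minus strand), the main partner of FOS in AP-1, did not follow it. It was at 22.0 and 11.6 CPM in WT, 33.6 and 28.1 CPM in CHD7 knockout, 23.1 and 32.8 CPM in HERVH knockdown, and 11.5 and 6.53 CPM in HERVH element deleted cells. The knockout and knockdown libraries lay above both WT libraries and the element deleted libraries lay below both, by a narrow margin in knockdown replicate 1 and in element deleted replicate 1. The log2 fold change was 0.87 (SE 0.31) in the knockout, 0.73 (SE 0.31) in the knockdown and -0.90 (SE 0.32) in the deletion. These values depended on the WT library, and without WT replicate 1 the deletion gave -0.34 and the knockdown 1.26. Per kb of exon, FOS exceeded JUN 3.80- and 4.75-fold in WT and 3.55- and 2.49-fold in HERVH element deleted libraries, but 1.85- and 1.56-fold in CHD7 knockout libraries, and the ratio was 0.6998 and 0.600 in the knockdown. JUN thus exceeded FOS per kb in the 2 knockdown libraries and in none of the other 6.

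JUNB (ENSG00000171223, chr19:12902300-12904129, plus strand), which encodes an AP-1 partner with weaker activity than JUN, was among the less abundant genes. It was at 4.53 and 4.63 CPM in WT, 8.36 and 4.25 CPM in CHD7 knockout, 4.38 and 11.7 CPM in HERVH knockdown, and 6.41 and 4.91 CPM in HERVH element deleted cells. Knockdown replicate 2 was the highest library and replicate 1 was below WT, so no direction held for the knockdown. The difference between the knockdown replicates was 1.39 on the log2 scale and 0.48 after a correction for GC content, and JUNB had the highest GC content of the 10 genes, 64.9%. Only the element deleted libraries lay on 1 side of WT, with a log2 fold change of 0.31 (SE 0.42). JUNB overlaps HOOK2 on the opposite strand, with the same doubt about the strand of the counting.

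ATF3 (ENSG00000162772, chr1:212738676-212794119, plus strand), the stress-induced relative of these factors, was at 40.6 and 26.2 CPM in WT and 38.6 and 51.8 CPM in CHD7 knockout cells. It was at 15.002 and 18.9 CPM in HERVH knockdown and 29.6 and 21.3 CPM in HERVH element deleted cells. Only the knockdown libraries did not overlap WT, with a log2 fold change of -0.98 (SE 0.25), against 0.44 (SE 0.25) in the knockout and -0.39 (SE 0.25) in the deletion. ATF3 was thus low in the knockdown together with FOS and FOSB, while JUN was not.

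EGR1 (ENSG00000120738, chr5:137801168-137804992, plus strand), the most abundant EGR factor, was at 61.9 and 32.4 CPM in WT and 37.99 and 38.4 CPM in CHD7 knockout cells. It was at 21.7 and 15.4 CPM in HERVH knockdown and 46.8 and 13.1 CPM in HERVH element deleted cells. The knockdown libraries lay below both WT libraries, whereas the element deleted libraries lay on either side of WT replicate 2. The log2 fold change was -1.34 (SE 0.44) in the knockdown, -0.31 (SE 0.42) in the knockout and -0.65 (SE 0.43) in the deletion, and the last was -0.0019 without element deleted replicate 2.

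EGR2 (ENSG00000122877, chr10:64571756-64578927, minus strand) and EGR3 (ENSG00000179388, chr8:22545172-22550993, minus strand) were near the lower limit of what these libraries could resolve. EGR2 ranged from 0.947 CPM in knockdown replicate 2 to 3.07 CPM in knockout replicate 2, and its groups all overlapped WT. EGR3 was counted with 23 and 9 reads in WT, 7 and 6 in CHD7 knockout, 6 and 1 in HERVH knockdown, and 15 and 3 in HERVH element deleted libraries. At these counts the log2 fold changes of EGR3, -1.18 (SE 0.84), -1.78 (SE 0.91) and -0.84 (SE 0.81) in the knockout, the knockdown and the deletion, were about as large as 1 to 2 times their errors.

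IER2 (ENSG00000160888, chr19:13261225-13265725, plus strand) had the narrowest range of the 10 genes, 1.79-fold between its lowest and highest CPM. It was at 39.9 and 46.1 CPM in WT, 33.2 and 33.7 CPM in CHD7 knockout, 40.4 and 56.4 CPM in HERVH knockdown, and 35.5 and 31.5 CPM in HERVH element deleted cells. The knockout and the deletion lay below WT, with the same log2 fold change of -0.36 (SE 0.19), and the knockdown overlapped WT. After the GC correction these values were -0.16 and -0.19.

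DUSP1 (ENSG00000120129, chr5:172195099-172198198, minus strand), whose protein ends MAP kinase signaling, was at 16.8 and 12.1 CPM in WT and 8.504 and 7.26 CPM in CHD7 knockout cells. It was at 6.02 and 12.2 CPM in HERVH knockdown and 10.9 and 8.47 CPM in HERVH element deleted cells. The knockout and element deleted libraries lay below both WT libraries, and knockdown replicate 2 reached the lower of them. The log2 fold change was -0.87 (SE 0.31) in the knockout, -0.67 (SE 0.31) in the knockdown and -0.57 (SE 0.31) in the deletion. The knockdown value was -1.27 without knockdown replicate 2 and -0.29 without replicate 1, and the deletion value was -0.29 without WT replicate 1.

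**Figure D2:**
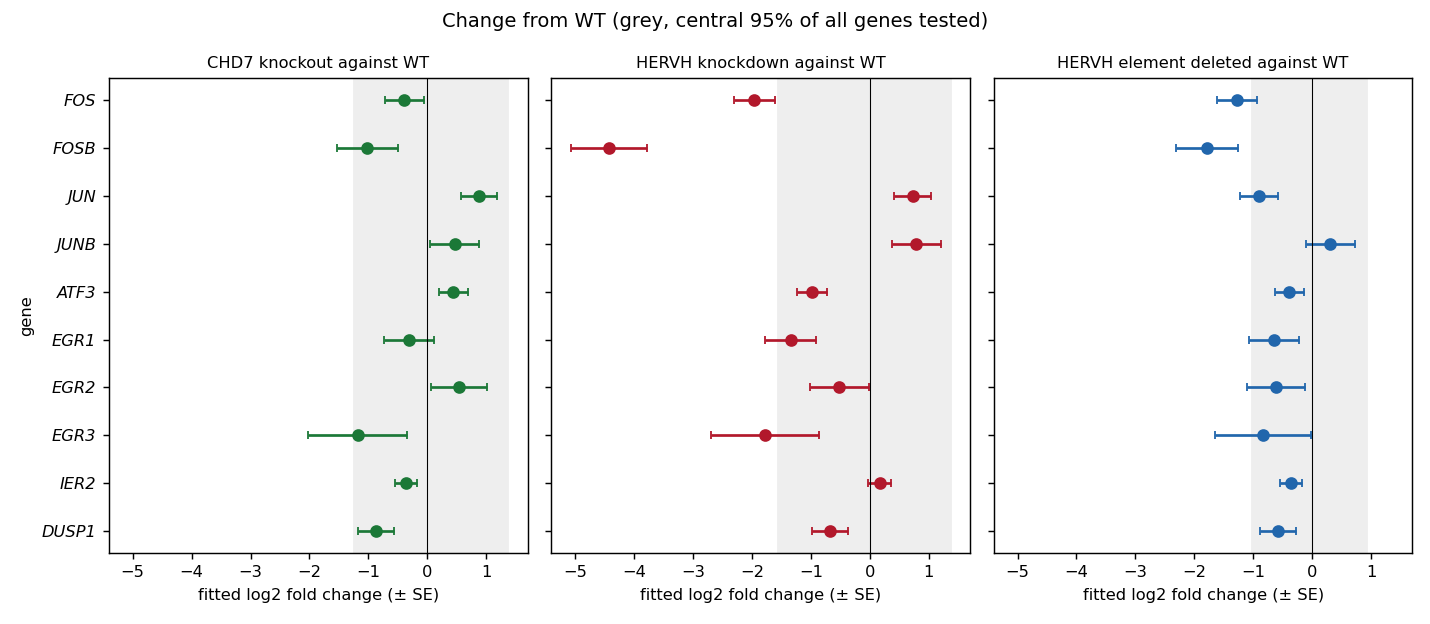
Fitted log2 fold change from WT (horizontal axis, with its SE as bars) of each gene (vertical axis) in the 3 comparisons, which share the same 2 WT libraries. Grey bands hold the central 95% of all genes tested. FOSB and FOS lie below the band (EGR3 too in the knockdown) in HERVH knockdown and in HERVH element deleted cells, and JUN lies above 0 in the first 2 comparisons and below 0 in the third.

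Read as a list, the genes were counted beside all genes tested, which sets the background but is no test, since the list was selected on these libraries. Calls needed an FDR under 0.01 in edgeR's quasi-likelihood test over all 23474 genes, together with a 2-fold or larger change. In HERVH knockdown cells 1 of the 10 genes, FOSB, was called, and 0.217% of all genes were. No call was made among the 10 in CHD7 knockout cells, where 0.571% of all genes were called, or in HERVH element deleted cells, where 0.0298% were. At an unadjusted p below 0.05 the same test gave 2, 6 and 3 of the 10 genes in the knockout, the knockdown and the deletion, beside 10.9%, 19.0% and 2.63% of all genes. DESeq2 called 0, 2 and 0, beside 1.16%, 1.47% and 0.0596% of all genes. The FOSB call was lost without WT replicate 1, WT replicate 2, CHD7 knockout replicate 1 or CHD7 knockout replicate 2. It was kept without either knockdown replicate and without either element deleted replicate. Over all settings the log2 fold change of FOSB in the knockdown ranged from -4.86 to -3.95.

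By position alone, both knockdown libraries lay below both WT libraries for 5 genes (FOS, FOSB, ATF3, EGR1 and EGR3), against 22.3% of all genes, and above them for JUN, against 22.5%. In HERVH element deleted cells 5 genes lay below (FOS, FOSB, JUN, IER2 and DUSP1), against 20.3%, and JUNB above, against 17.7%. In CHD7 knockout cells 4 genes lay below (FOSB, EGR3, IER2 and DUSP1), against 22.4%, and JUN above, against 21.5%. FOSB was the 1 gene below WT in every condition. The median log2 fold change of the 10 genes was -0.33 in the knockout, -0.83 in the knockdown and -0.63 in the deletion, beside medians of -0.012, 0.036 and -0.019 over all genes. Without WT replicate 1, which held the highest value of 5 of the 10 genes, the median was 0.12 in the knockout, -0.53 in the knockdown and -0.19 in the deletion. In bulk RNA, fewer cells with these mRNAs and less mRNA per cell cannot be told apart.

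**Figure D3:**
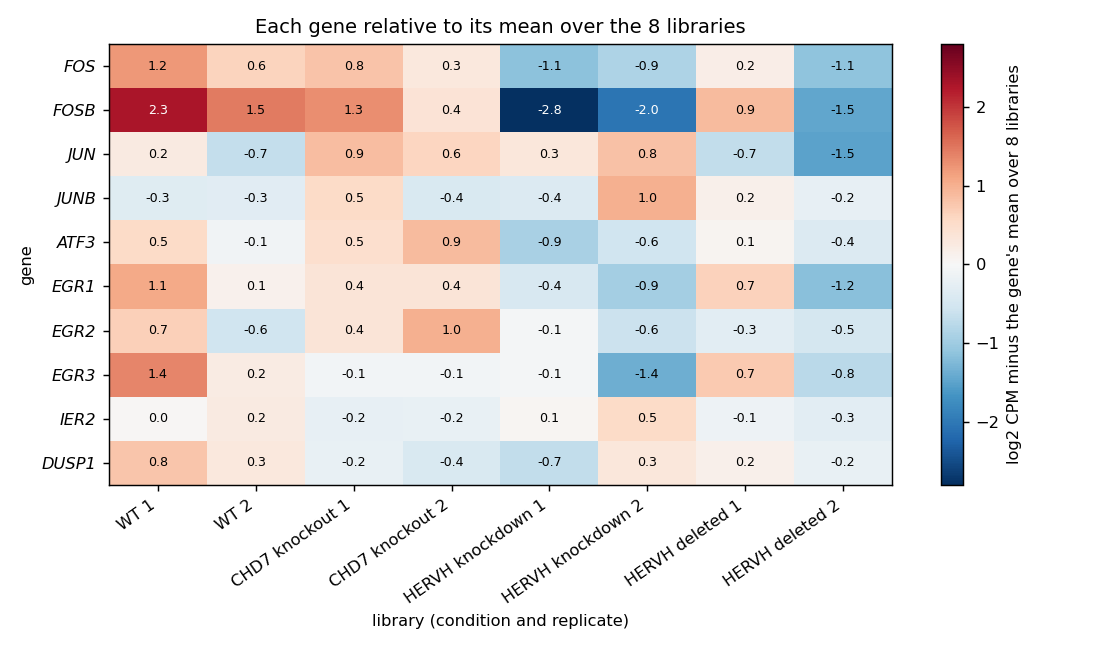
Log2 CPM of each gene (rows) in each library (columns) minus the mean of that gene over the 8 libraries, as numbers and color. WT replicate 1 holds the highest value of 5 genes, knockdown replicate 1 the lowest of 4 and element deleted replicate 2 the lowest of 3, and the 2 libraries of a condition often differ in shade.

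The replicates of a condition were then compared gene by gene, since the levels of these mRNAs move with handling. Between the 2 HERVH element deleted libraries, all 10 genes were higher in replicate 1. FOSB was 5.17-fold, EGR1 3.57-fold, FOS 2.50-fold and JUN 1.75-fold higher there in CPM, and EGR3 had 15 against 3 reads. Of all genes tested, 51.1% were higher in that replicate. The median absolute difference of the 10 genes on the log2 scale was 0.637, against 0.194 for all genes, and 4 of the 10 (FOS, FOSB, EGR1 and EGR3) lay outside the range that held the central 95% of all genes. Among genes of like expression (all genes in 5 bins), the difference of FOSB was at percentile 99.96, that of FOS at 99.96 and that of EGR1 at 99.98.

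The WT replicates differed in a like manner. Replicate 1 was higher for 8 of the 10 genes, and the exceptions were JUNB and IER2. The largest gaps were those of EGR3 (2.52-fold) and EGR2 (2.49-fold), the genes with the lowest counts. EGR1 was 1.91-fold, JUN 1.89-fold, FOSB 1.79-fold, ATF3 1.55-fold, FOS 1.51-fold and DUSP1 1.39-fold higher in replicate 1. The median absolute difference was 0.732, against 0.259 for all genes. A correction for GC content did not remove these gaps, since the differences of EGR1 and JUN went from -0.93 and -0.91 to -1.03 and -1.003. In CHD7 knockout cells the median was 0.339, against 0.248 for all genes, with 6 of 10 genes higher in replicate 1. In HERVH knockdown cells it was 0.525, against 0.453, with 3 of 10 higher in replicate 1, so that the genes differed there about as much as other genes did.

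**Figure D4:**
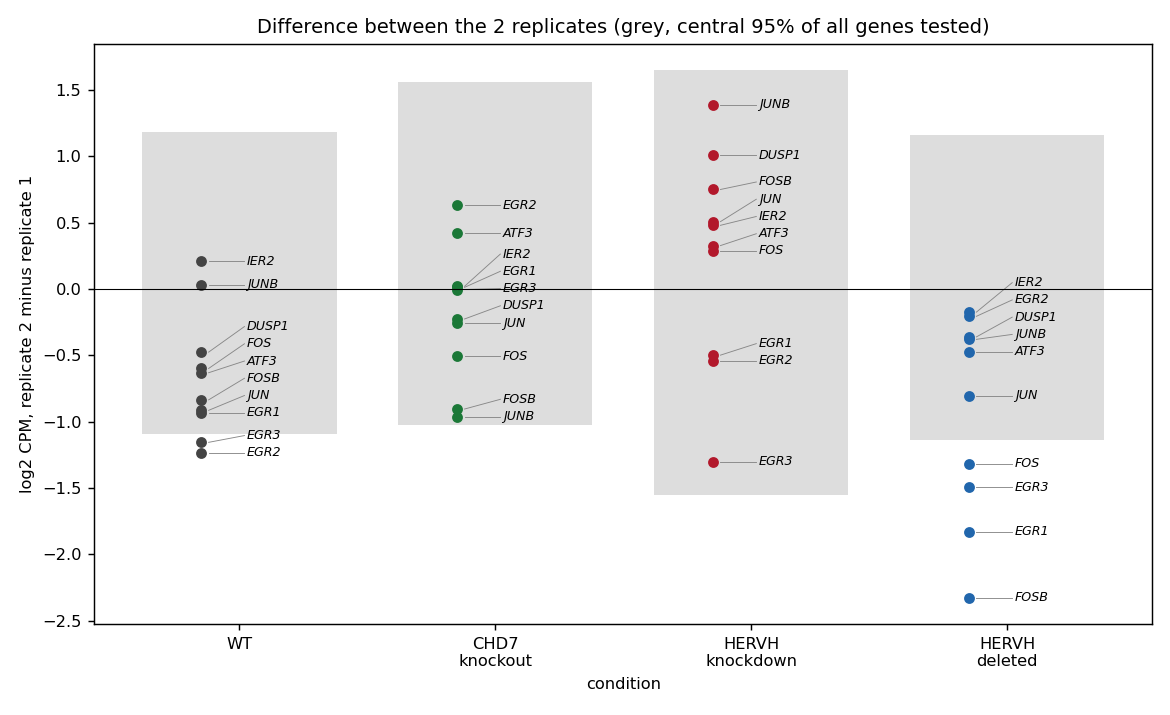
Log2 CPM of replicate 2 minus replicate 1 (vertical axis) for each of the 10 genes in the 4 conditions (horizontal axis). Grey boxes hold the central 95% of all genes tested. In HERVH element deleted cells all 10 points lie below 0 and 4 lie below the box, and in WT cells 8 lie below 0.

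The wider response was examined with 37 other genes induced by the same signals, of which 34 were tested and EGR4, NR4A3 and KLF2 were too low. None was called by edgeR in any comparison, while 7, 11 and 2 of them (20.6%, 32.4% and 5.88%) had an unadjusted p below 0.05 in the knockout, the knockdown and the deletion, beside the 10.9%, 19.0% and 2.63% of all genes. DESeq2 called 1, 1 and 0 of them (2.94%, 2.94% and 0%), beside 1.16%, 1.47% and 0.0596% of all genes. Their median log2 fold changes were -0.045, 0.11 and -0.20, nearer 0 than those of the 10 genes. In the deletion 30 of the 34 values were below 0, and in the knockdown 13 were. The replicates of these genes lay closer together than those of the 10 genes. Their median absolute differences were 0.272 in WT and 0.160 in HERVH element deleted cells, against 0.259 and 0.194 for all genes. Most of them were likewise higher in element deleted replicate 1. Differences of BTG2, PPP1R15A and CCN1 there were at percentiles 98.6, 97.9 and 99.1 among genes of like expression. Those higher in replicate 2 were IER5, MAFK, ARC, NFKBIA, DUSP2 and DUSP4.

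In CHD7 knockout cells the largest value of this list belonged to FOSL1, an AP-1 subunit related to FOS, at 15.7 and 7.76 CPM in WT and 3.19 and 4.25 CPM in the knockout (log2 fold change -1.66, SE 0.32, edgeR FDR 0.0186). PHLDA1, a signal-induced adaptor, was at -0.69 (SE 0.19, FDR 0.0965), and DUSP6, a phosphatase of ERK, was at -0.68 (SE 0.15, FDR 0.0317). In HERVH knockdown cells RHOB, a small GTPase, was at 31.3 and 59.9 CPM against 17.5 and 15.3 CPM in WT (1.47, SE 0.27, FDR 0.0186). DUSP2, a nuclear MAP kinase phosphatase, was at 1.37 (SE 0.39, FDR 0.0863), and the pluripotency factor KLF4 was at -1.20 (SE 0.38, FDR 0.12). In HERVH element deleted cells the largest values were those of KLF4 (-0.96), the antiproliferative gene BTG2 (-0.79) and RHOB (-0.41), each with an FDR of 1. None of these genes passed the threshold in edgeR, while DESeq2 called FOSL1 in the knockout and RHOB in the knockdown. The side of WT on which RHOB and DUSP2 lay in the knockdown was opposite to that of FOS and FOSB.

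The genes that carry the signal to these promoters were measured as well. All 22 genes of this list, from FGFR1 and the Ras and Raf genes to ERK, ELK1, SRF and CREB1, were tested, and none was called by edgeR or DESeq2 in any comparison. At an unadjusted p below 0.05, edgeR gave 1 (4.55%) in the knockout, 9 (40.9%) in the knockdown and 0 in the deletion, where 10.9%, 19.0% and 2.63% of all genes had such a p. The median log2 fold changes of the list were -0.0093, -0.16 and -0.054. SRF was at 88.2 to 137 CPM and ELK1 at 30.7 to 41.9 CPM over the 8 libraries.

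Of 9 genes of acute stress responses (heat shock proteins and targets of the integrated stress response), none was called in the knockout or the knockdown by either tool, and none had an unadjusted p below 0.05 there. Of all genes, edgeR called 0.571% and 0.217% and DESeq2 1.16% and 1.47% in these comparisons, and 10.9% and 19.0% had such a p in edgeR's test. In HERVH element deleted cells HSPA1A, an inducible heat shock protein, was called, with 1.92 and 1.35 CPM against 19.4 and 15.9 CPM in WT (log2 fold change -3.41, SE 0.29, edgeR FDR 0.00011). Its near-identical copy HSPA1B was at 28.9 and 31.1 CPM there and 30.2 and 32.6 CPM in WT, and the division of reads between such copies is uncertain. For HSPA1A both element deleted libraries lay below all 6 others. Of all genes, edgeR called 0.0298% in this comparison. An unadjusted p below 0.05 in edgeR's test was found for 22.2% of the stress list, beside 2.63% of all genes. These were HSPA1A and HSPH1, which went the other way and was not called. HSPH1 was at 407 and 395 CPM, against 286 and 330 CPM in WT (log2 fold change 0.38, SE 0.17).

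**Figure D5:**
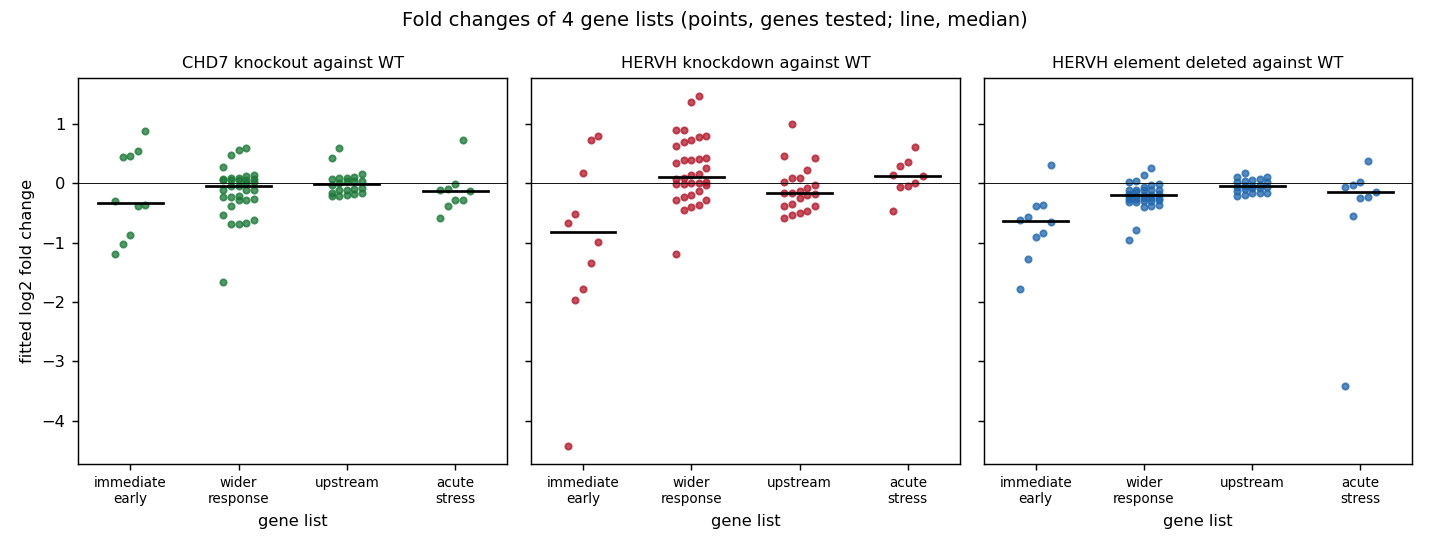
Fitted log2 fold change from WT (vertical axis) of the genes tested in 4 lists (horizontal axis) for the 3 comparisons, with a point for each gene and a line at the median of the list. FOSB is the lowest point in HERVH knockdown cells, FOSL1 of the wider list the lowest in CHD7 knockout cells, and the lowest stress point in HERVH element deleted cells is HSPA1A.

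The genes whose profile over the 8 libraries came nearest to the mean profile of the 10 genes were then listed, by the root mean square difference of centred log2 CPM over 12696 genes with a mean log2 CPM of at least 2. The nearest were GPR37 (0.195), TMEM92 (0.199), GAS7 (0.203), TMCO4 (0.212) and PGM1 (0.221), followed by SMIM14, GABARAPL1, ENSG00000266709, ARHGAP31 and ADM2, while the median gene was at 0.541. GPR37, an orphan receptor, was at 14.7 and 10.8 CPM in WT, 11.5 and 10.5 CPM in CHD7 knockout, 4.43 and 5.46 CPM in HERVH knockdown, and 7.52 and 5.34 CPM in HERVH element deleted cells. None of the 10 nearest genes was on the wider list, whose nearest member, PPP1R15A, ranked 62. The distance of the 10 genes from their own mean ran from 0.317 for ATF3 to 1.29 for FOSB. This distance grows with the size of the changes, and FOSB lay on the same side as the mean profile in every library. The 10 genes did not share a single profile, since JUN, at 0.775, went the other way in the knockdown. Its centred values there were 0.31 and 0.82, against -0.61 and -0.37 for the mean profile.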

How the data were processed

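RNA-seq was analysed in 8 libraries of H9 hESCs, 2 in each of 4 groups taken from the labels. The authors removed rRNA, made strand-specific libraries, aligned them with STAR to hg19 using Ensembl release 75 gene models, and obtained counts per gene with HTSeq. The deposited values are these raw counts, without normalization, and the strand setting and tool versions are not given in the sources used here. Reads outside annotated genes (34.9% to 42.5%) were left out of library sizes.

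Ensembl identifiers were matched to symbols, and positions and exon lengths came from GENCODE 44 on GRCh37. With edgeR 4.0.16 in R 4.3.3, libraries were scaled by TMM, genes were kept by filterByExpr (23474 genes), and each group was compared with WT by the quasi-likelihood test, fitting the 4 groups together (4 residual degrees of freedom). Calls needed an FDR (Benjamini-Hochberg, all genes tested) under 0.01 and a 2-fold or larger change. Log2 CPM used a prior count of 2. Depth was 14802049 to 23156445 reads, and a limit of 3 counts covers counting error only. Tables and figures used Python 3.11.15, pandas 2.3.3, numpy 2.4.6 and matplotlib 3.10.9, and the fits were tested on simulated data.

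The 10 genes and all other lists were chosen with earlier results of these data known. Named are all 10 genes, CHD7, every gene of the other lists called in a comparison, the 3 genes of the wider list with the largest change in each comparison, and the 10 genes nearest to the mean profile. EGR4, NR4A3, KLF2, HSPA1B, SRF, ELK1, ERCC1, HOOK2, PPP1R15A, NR4A1 and MYC, and markers, were named beyond that rule after their values were seen. So were HSPH1, CCN1, IER5, MAFK, ARC, NFKBIA and DUSP4. Alternatives were RLE scaling, DESeq2 1.42.0, no filter and a stricter one (50 counts in 2 libraries), a fit of the 4 libraries compared, a loess correction for GC (span 0.3), the replicate number as a block, an FDR below 0.05 and each library left out. A block with crossed replicate numbers was added after seeing the data.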

Additional observations from a re-analysis of the deposited data

Results flagged for a closer look

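Of the 10 genes and the wider-list genes with the largest changes, those are listed here for which 2 conditions lay on opposite sides of both WT libraries. The difference between the conditions was not tested, and the comparisons share the same WT libraries. JUN had a log2 fold change of 0.87 in CHD7 knockout cells and 0.73 in HERVH knockdown cells, with both libraries of each above WT, and of -0.90 in HERVH element deleted cells, with both libraries below WT. RHOB, a small GTPase gene of the wider list, had 1.47 in the knockdown and -0.41 in the deletion. DUSP2, a MAP kinase phosphatase gene, had 1.37 in the knockdown and -0.29 in the deletion. With 2 libraries in each group, single libraries were not tested as outliers.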

How the results depend on the processing

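Counts of genes called, of the 10 genes and the wider list, are given by setting. In CHD7 knockout cells 134 genes were called, against 272 with DESeq2, 368 without a filter, 349 in the fit of 4 libraries, 300 with the GC correction, 290 at an FDR below 0.05 and 26 to 384 with a library left out. Of the 10 genes, 1 (FOSB) was called without a filter, and 0 with any library left out. FOSL1 was the 1 gene of the wider list called with DESeq2, without a filter, in the fit of 4 libraries and at an FDR below 0.05 (0 to 1 with a library left out). The median of the 10 genes was -0.33, against -0.21 with the GC correction and -0.46 to 0.12 with a library left out. In HERVH knockdown cells 51 genes were called, against 81 with RLE scaling, 344 with DESeq2, 506 without a filter, 19 with the stricter filter, 6 in the fit of 4 libraries, 364 with the GC correction, 350 at an FDR below 0.05 and 2 to 825 with a library left out. Of the 10 genes, 2 (FOS and FOSB) were called with DESeq2 or at an FDR below 0.05, 3 (with ATF3) with the GC correction, 4 (with ATF3 and EGR1) without a filter, 0 with the stricter filter, and 0 to 4 with a library left out. Of the wider list, RHOB was the 1 gene called with DESeq2, the GC correction and an FDR below 0.05, 2 (with DUSP2) were called without a filter, and 0 to 5 with a library left out. The median was -1.15 to -0.53 with a library left out. In HERVH element deleted cells 7 genes were called, against 14 with DESeq2, 30 without a filter, 18 with the GC correction, 17 at an FDR below 0.05 and 5 to 21 with a library left out. Of the 10 genes, 2 (FOS and FOSB) were called without a filter. With a library left out, 0 of the 10 genes and 0 of the wider list were called, and the median was -1.09 to -0.19. The cause of these shifts was not tested.

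With the replicate number as a replicate block, 153 genes were called in the knockout and 70 in the knockdown, where 2 of the 10 genes (FOS and FOSB) were called. The replicate block with the GC correction gave 272, 314 and 14 genes, a median of -0.14 in the knockout, 3 of the 10 genes (FOS, FOSB and EGR1) and 1 of the wider list (RHOB) in the knockdown. The deviations of same-numbered libraries from their group means correlated at -0.28, 0.35 and 0.51 across genes, which with 2 pairs does not show that the numbers pair the samples. Crossed replicate numbers gave 207 genes and 1 of the wider list (FOSL1) in the knockout. The sign of the fold change turned under some setting for EGR1 and JUNB in the knockout, EGR2, IER2 and JUNB in the knockdown and EGR2 in the deletion, and was kept for the others. Of the 30 fold changes of the 10 genes, 27 moved by over 1.5 times on the log2 scale under some setting, and the exceptions were FOS and FOSB in the knockdown and DUSP1 in the knockout. FOSB in the knockdown ranged from -4.86 to -3.95 and FOS from -2.23 to -1.63. With 1 library left out, the lone library of a group is assumed to vary like the others. Depth limits EGR2 and EGR3 most.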

Other observations

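Some genes of the wider list shared the gap between the WT libraries. BTG2, KLF4 and FOSL1, chosen after their values were seen, were 1.94-, 1.97- and 2.03-fold higher in replicate 1, whereas NR4A1, a nuclear receptor gene of the early response, had 26.7 and 25.6 CPM, and MYC had 44.01 and 59.0 CPM. NR4A1 was at 23.3 and 20.6 CPM in the HERVH element deleted libraries, so it differed far less between them than FOSB did. BTG2, KLF4 and FOSL1 were 1.41-, 1.39- and 1.24-fold higher in element deleted replicate 1, and MYC was 1.01-fold higher.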
